A study of Homo sapiens with 6 samples.

Results

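The genes described here are 47 interferon-stimulated and RNA-sensing genes, listed by gene name. No measured value entered the list, but it was drawn up with earlier results of these data known. The genes were followed in LNCaP, a long-established human line of luminal prostate cancer cells, on 6 single-colour Affymetrix arrays of total RNA. In 3 of the arrays the cells had received small interfering RNA (siRNA) against PCARNEQ, a non-coding RNA (siPCARNEQ), and in the other 3 they had received siRNA against EGFP, a fluorescent protein that human cells do not encode (siEGFP). Both groups were therefore transfected with siRNA, and no untransfected cells were analysed here. The labels call the arrays a triplicate without naming separate cultures, so the p-values speak to array-to-array spread alone, part or all of which may be technical.

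Each gene was represented by its brightest probe set among those paired with 1 gene, and 46 of the 47 members had such a probe set, out of 19775 genes in all. STAT2 was not analysed here. All levels are log2 intensity and all changes are siPCARNEQ minus siEGFP on that scale. A member was said to rise or fall where limma gave a Benjamini-Hochberg adjusted p below 0.05 over all 19775 genes. The median of each array was 7.03, and in 7 of the 46 members (OAS2, SAMD9, SAMD9L, PARP14, IFI44L, XAF1 and EPSTI1) the mean over the arrays was below it. Such dim levels may be close to background. These are measurements on bulk RNA, in which fewer cells of a kind and less RNA per cell cannot be told apart. Probe sets differ in how strongly they bind, so levels are compared between arrays and not between genes.

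Cells read foreign or misplaced RNA with sensors such as RIG-I (gene RIGI), MDA5 (IFIH1), TLR3, the kinase PKR (EIF2AK2) and the oligoadenylate synthetases, which recognise double-stranded RNA or the ends of RNA molecules. RIG-I and MDA5 signal through the mitochondrial adaptor MAVS, and TLR3 through TICAM1, to induce type I and type III interferons. Interferons bind their receptors, activate the kinases JAK1 and TYK2, and drive a complex that holds STAT2 and IRF9 to the interferon-stimulated response element, a sequence in the promoters of many of the genes described below.

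The arrays were first checked against their labels and each other. Of the luminal prostate markers, 6 of 8 were measured, with levels from 8.40 to 14.12, and 4 rose. The 7 measured immune markers lay between 5.03 and 7.54, with PTPRC, the pan-leukocyte marker, at 5.03 to 5.12. CD3E lay above the array median, at 7.41 to 7.54. None of the 7 passed in limma, nor did any of the 3 endothelial markers, and none of either list had an unadjusted p below 0.05. Of 5 fibroblast markers, COL1A1 and LUM rose by 1.11 and 1.39 and the others did not pass. The list mean lay at 7.56 to 7.66 in siPCARNEQ and 6.97 to 7.17 in siEGFP. COL1A1 itself lay well above the array median, at 10.62 to 11.03 with siPCARNEQ and 9.59 to 9.73 with siEGFP. LUM lay at 7.02 to 7.37 with siPCARNEQ and 5.51 to 6.11 with siEGFP. Of 2 basal markers KRT14 rose by 1.02 at levels below the array median, while KRT5 did not pass (-0.16, lower with siPCARNEQ in all 3 pairs). The part of these shifts in the results below was not tested. Across all probe sets, array 1 stood apart in both groups, and siPCARNEQ array 1 also had the widest log2 gap between the 3' and 5' controls for ACTB, which grows as RNA degrades, at 1.84 against 0.63 to 0.78 in the other 5 arrays (2-sided exact permutation p = 0.5 between groups, where 0.1 is the smallest that 3 against 3 arrays allow).

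Most of the interferon-stimulated genes did not pass the test between siPCARNEQ and siEGFP, and those that did went both ways. Of the 46 measured members, 10 rose (TLR3, IRF7, IRF9, IFIT5, ISG20, TRIM22, UBE2L6, PARP14, IFI35 and LGALS3BP), 2 fell (EIF2AK2 and USP18) and 34 did not pass. Among all genes 27.5% passed, 15.2% higher and 12.3% lower, so the 10 members make up 21.7% of the measured ones against that 15.2%, and the 2 make up 4.35% against 12.3%. The median change of the 46 members was 0.22, against -0.01 over all genes. That median rested on single arrays: it was 0.03 without siEGFP array 1, 0.11 without siPCARNEQ array 3, 0.12 without siPCARNEQ array 2, 0.33 without siEGFP array 2, 0.35 without siEGFP array 3 and 0.39 without siPCARNEQ array 1. With siPCARNEQ the arrays lay wholly above the siEGFP arrays in 14 members (22.3% of all genes) and wholly below them in 4 (21.7% of all genes).

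The other large difference in these genes lay between arrays of the same group. In 36 of the 46 members, array 1 had the lowest level of its group in both groups, a pattern found in 22.2% of all genes. Array 1 was at least 2-fold below the mean of arrays 2 and 3 in both groups in 51 genes (0.258% of all genes), and 12 of these were members: IFIT1, IFIT2, IFIT3, OAS1, OASL, RSAD2, CMPK2, IFI6, IFI27, IFI44, IFI44L and PLSCR1. None of the 5 genes that were at least 2-fold higher in array 1 in both groups was a member. For 25 members the difference between array 1 and the others was larger than that between the siRNAs, as it was for 38.7% of all genes. No test was made of this difference, since array 1 is the only array of its kind in each group. In 9 of the 12 the drop was deeper in siEGFP than in siPCARNEQ. The part of RNA quality in these values was not tested. Without siPCARNEQ array 1, 13 members rose (17.4% of all genes) and 2 fell (14.5% of all genes).

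**Figure D1:**
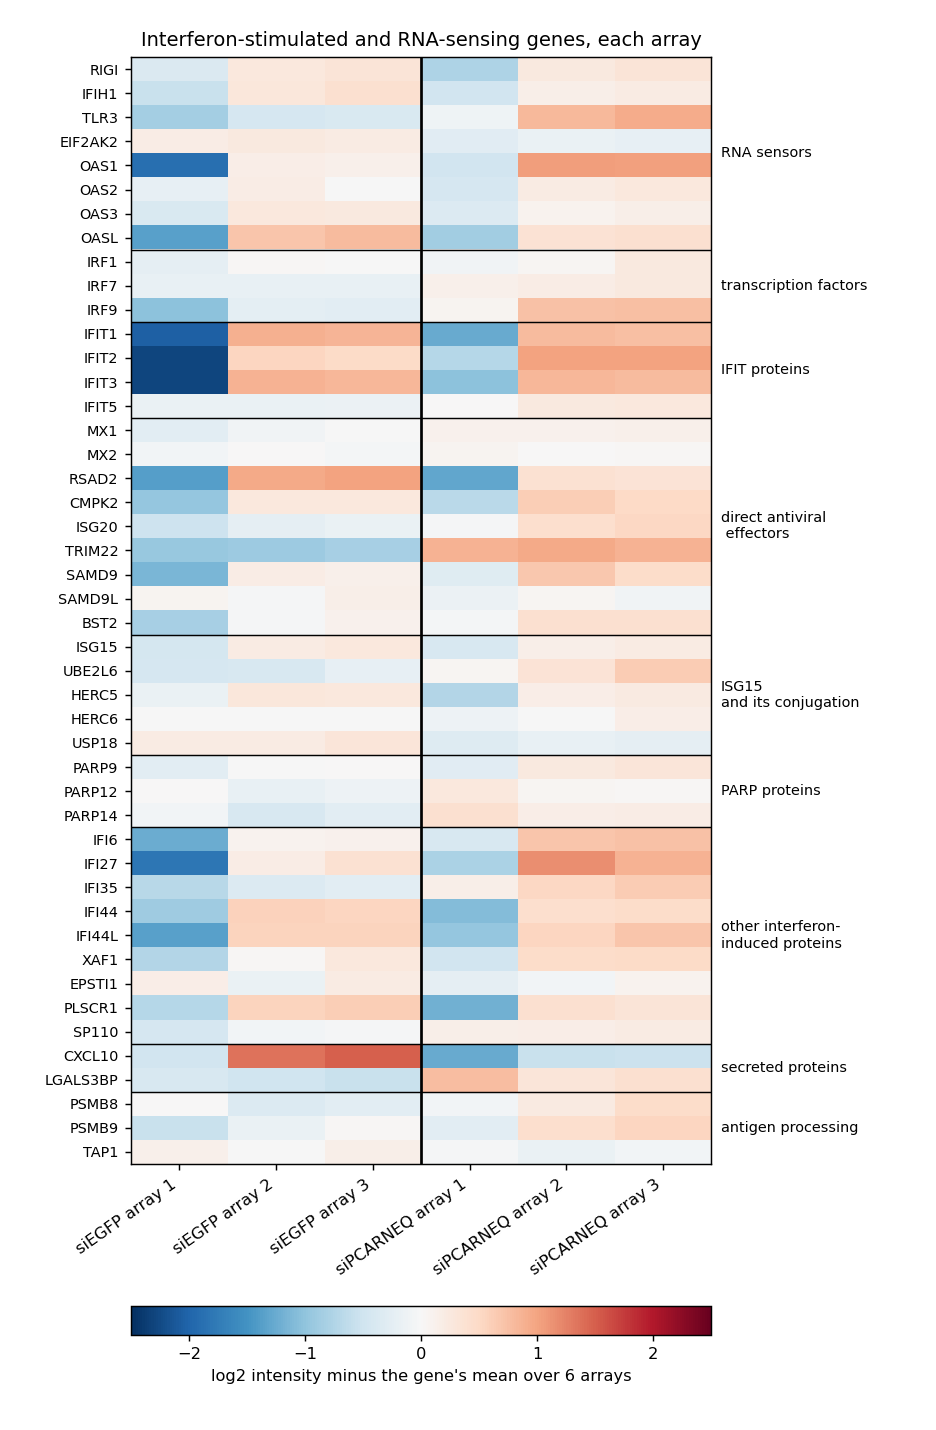
Heat map of the 46 measured members, in rows grouped by role, on the 6 arrays, in columns. Colour gives log2 intensity minus the gene's mean over all arrays, and array 1 is the lowest of each group for IFIT1, IFIT2, IFIT3, OAS1, OASL and RSAD2, while TRIM22 divides by siRNA on every array.

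Since array 1 widened the spread within both groups, the pairs of arrays with the same replicate number were also compared. All 3 pairs were higher with siPCARNEQ in 24 members (30.6% of all genes) and lower in 8 (31.7% of all genes). With the replicate number as a block in limma, 21 members rose (19.2% of all genes) and 4 fell (15.3% of all genes). With array 1 against arrays 2 and 3 as the block, 22 rose (21.8% of all genes) and 4 fell (18.3% of all genes). With array 1 of both groups left out, 23 members rose (22.8% of all genes) and 6 fell, which is 13.0% of the members against 18.8% of all genes. When arrays 2 and 3 of a group were averaged and counted as 1 replicate, with no block, 2 members rose, TRIM22 and LGALS3BP (6.05% of all genes), and 1 fell, USP18 (5.26% of all genes). The labels do not explain the shared number. In the values, deviations from group means correlated at 0.47 between the arrays numbered 1. siPCARNEQ array 2 correlated more with siEGFP array 3 (0.37) than with siEGFP array 2 (0.30). siPCARNEQ array 3 correlated at 0.34 with siEGFP array 3 and at 0.24 with siEGFP array 2. The values thus set array 1 apart but do not show that numbers 2 and 3 mark pairs.

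**Figure D2:**
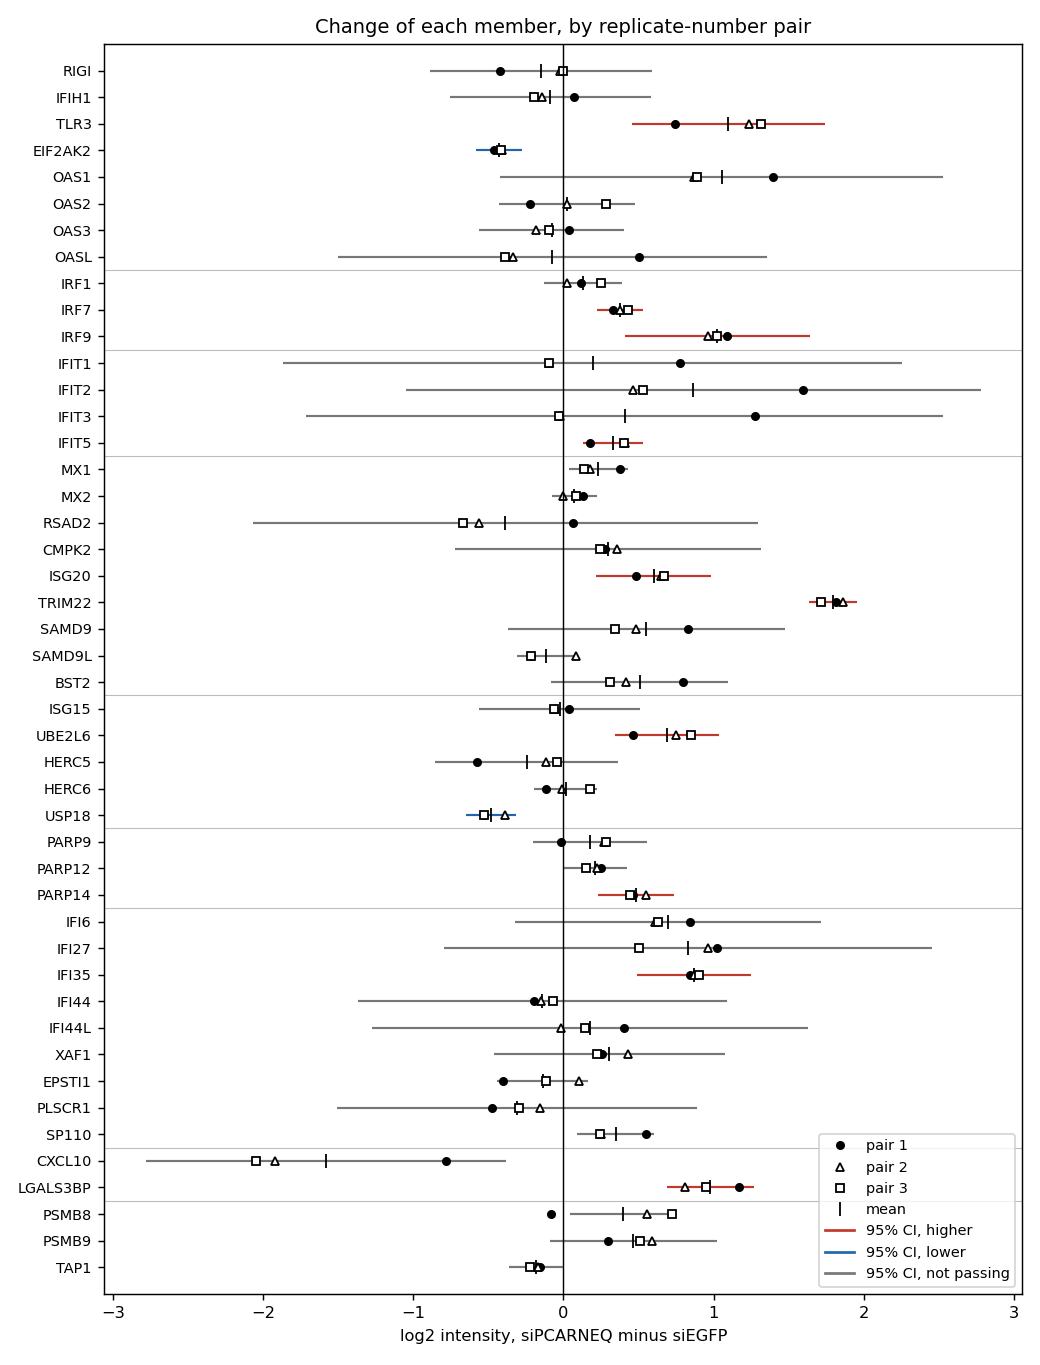
Log2 change (siPCARNEQ minus siEGFP) of each member for pairs 1, 2 and 3 of arrays with the same number, with the mean and the 95% confidence interval of the limma fit without a block, coloured by call. The 3 pairs of TRIM22 lie between 1.71 and 1.86, while IFIT3 has 1.27 in pair 1 and -0.03 in both others.

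Among the RNA sensors, 1 of 8 rose and 1 fell, 12.5% in each direction and near the 15.2% and 12.3% of all genes. TLR3, the endosomal receptor for double-stranded RNA, had log2 levels of 7.82, 8.74 and 8.85 in siPCARNEQ arrays 1 to 3 and 7.07, 7.50 and 7.54 in siEGFP arrays 1 to 3. The groups did not overlap, and array 1 was lowest in each. TLR3 rose by 1.10 (SE 0.27, adjusted p = 0.022), or 2.14-fold. A separate TLR3 probe set rose by 1.57 (adjusted p = 0.00134 over probe sets), and the dimmest one had a change of 0.22. The call on the brightest probe set was lost without any single array other than siPCARNEQ array 1 (adjusted p up to 0.0784) and with arrays 2 and 3 averaged (adjusted p = 0.132), but pairs 1 to 3 gave changes of 0.74, 1.24 and 1.32.

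EIF2AK2 encodes PKR, the kinase that halts translation when it binds double-stranded RNA. Its levels were 8.78, 8.90 and 8.85 in siPCARNEQ arrays 1 to 3 and 9.25, 9.31 and 9.27 in siEGFP arrays 1 to 3. Every siPCARNEQ array lay below every siEGFP array, and array 1 was close to the others. EIF2AK2 fell by 0.43 (SE 0.07, adjusted p = 0.0029) and kept an adjusted p of at most 0.0198 when any 1 array was left out, but had 0.0574 with arrays 2 and 3 averaged. Its other probe sets had changes of -0.16 and -0.49 and did not pass.

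The cytosolic sensors RIGI and IFIH1 did not pass. RIGI lay at 7.97, 8.99 and 9.07 with siPCARNEQ against 8.39, 9.01 and 9.07 with siEGFP, with a change of -0.15 (SE 0.31, adjusted p = 0.778). IFIH1 lay at 8.48, 9.12 and 9.17 with siPCARNEQ against 8.41, 9.25 and 9.36 with siEGFP, with a change of -0.09 (SE 0.28, adjusted p = 0.862). In both genes array 1 was lowest in each group, and pairs 2 and 3 differed by at most 0.02 in size for RIGI and by -0.14 and -0.19 for IFIH1. A dimmer IFIH1 probe set fell by 1.06 (adjusted p = 0.00279 over probe sets) at levels of 5.31 to 6.77, below the array median.

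The oligoadenylate synthetases make the 2-5A messenger that activates RNase L. OAS1 had the widest split between siRNAs among them, at 8.16, 9.68 and 9.66 with siPCARNEQ against 6.76, 8.81 and 8.77 with siEGFP. Array 1 was more than 2-fold below the others in each group, and within each pair siPCARNEQ was higher, by 1.40, 0.87 and 0.89. The change of 1.05 (SE 0.63, adjusted p = 0.276) therefore did not pass without a block and did with the replicate number as one (adjusted p = 0.00163). OAS2, OAS3 and OASL, the last a relative that has lost the synthetase activity, had changes of 0.03, -0.08 and -0.07 and passed in neither fit. OASL illustrates the array gap, with array 1 below the mean of arrays 2 and 3 by 1.24 in siPCARNEQ and 2.11 in siEGFP.

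The transcription factors that carry the interferon signal rose in 2 of the 3 measured cases (15.2% of all genes). IRF9, the DNA-binding partner of STAT2, lay at 9.53, 10.20 and 10.23 with siPCARNEQ against 8.44, 9.24 and 9.21 with siEGFP. Each siPCARNEQ array was about 1 log2 unit above the siEGFP array of its number (1.09, 0.96 and 1.02). IRF9 rose by 1.02 (SE 0.26, adjusted p = 0.0249), lost the call without siPCARNEQ array 2, siPCARNEQ array 3 or siEGFP array 1 (adjusted p up to 0.0789) and with arrays 2 and 3 averaged (0.114). IRF7, which drives the later wave of interferon gene transcription, lay at 8.98, 9.03 and 9.10 with siPCARNEQ against 8.65, 8.66 and 8.67 with siEGFP and was nearly level within a group. It rose by 0.38 (SE 0.06, adjusted p = 0.00473), with 0.0863 as the adjusted p when arrays 2 and 3 were averaged. IRF1, an early interferon-gamma target, had a change of 0.13 (SE 0.11, adjusted p = 0.441).

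The IFIT proteins bind viral and other RNA that lacks self marks and block its translation. IFIT1 lay at 9.42, 11.48 and 11.44 with siPCARNEQ against 8.65, 11.57 and 11.53 with siEGFP. Pairs 1 to 3 differed by 0.78, -0.10 and -0.10, and array 1 was below the mean of the others by 2.03 in siPCARNEQ and 2.90 in siEGFP. IFIT3 showed the same layout, at 8.87, 10.73 and 10.69 with siPCARNEQ against 7.60, 10.76 and 10.72 with siEGFP, and its change was 0.41 (SE 0.90, adjusted p = 0.79), against 0.19 (SE 0.88, adjusted p = 0.902) for IFIT1. IFIT2 lay at 9.51, 11.21 and 11.22 with siPCARNEQ against 7.91, 10.75 and 10.69 with siEGFP, with pair differences of 1.60, 0.47 and 0.53. Its change of 0.86 (SE 0.82, adjusted p = 0.497) passed with the replicate number as a block (adjusted p = 0.0316). IFIT5, which binds RNA with a free 5' phosphate, lay at 9.29, 9.53 and 9.55 with siPCARNEQ against 9.12, 9.12 and 9.14 with siEGFP. Its array 1 was below the mean of the others by 0.24 in siPCARNEQ and 0.01 in siEGFP. That gap was smaller than in IFIT1, IFIT2 and IFIT3. The IFIT5 differences in pairs 1 to 3 were 0.18, 0.41 and 0.41. IFIT5 rose by 0.33 (SE 0.09, adjusted p = 0.0255), and its other probe set by 0.33 (adjusted p = 0.0332 over probe sets). The call was lost without any array but siPCARNEQ array 1 (adjusted p up to 0.0902) and with arrays 2 and 3 averaged (0.216).

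**Figure D3:**
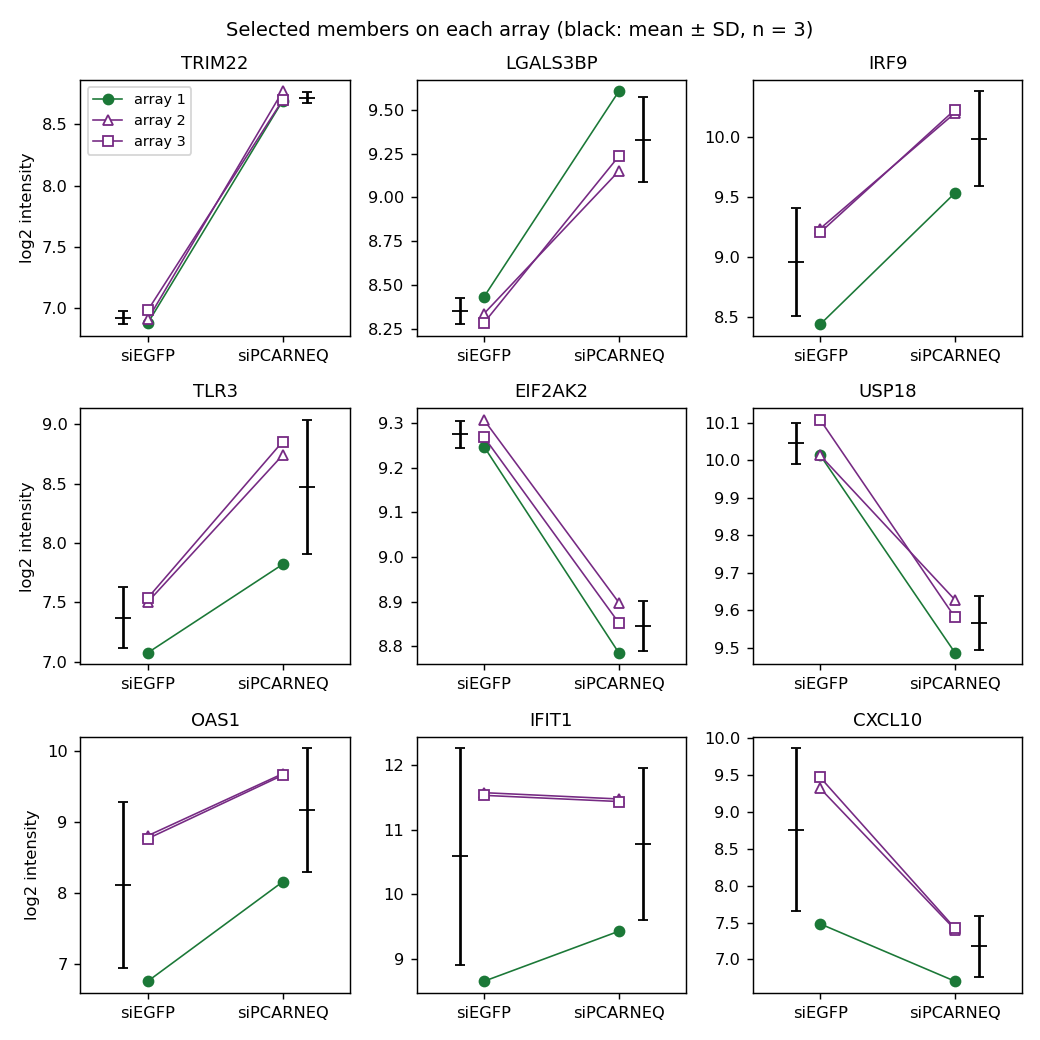
Log2 intensity of 9 members on each array, siEGFP at left and siPCARNEQ at right, with lines joining arrays of the same number and black marks for the mean ± SD (n = 3). TRIM22 separates by siRNA on all arrays, OAS1 is shifted by both siRNA and array number, and IFIT1 is split mainly by array number.

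Promoter sequence was set beside these patterns, because many of the members are known targets of the same complex and many were low together in array 1. RefSeq windows of 250 bases before to 50 after a transcription start (GRCh38.p14) were found for 40 of the 47 members. They were searched on both strands for GAAANNGAAA, the core of the interferon-stimulated response element, which reads TTTCNNTTTC on the other strand. Overlapping matches were all counted. The motif was present in at least 1 window of 27 of these 40 genes (67.5%), against 3.98% of 15384 array genes with a window and 3.57% of all 35116 windows. A match describes the letters only and is not evidence of binding in these cells. The sequences below run 5' to 3' on the gene's own strand, upstream of the start, with the motif in capitals. They are shown in 3 sets. IFIT1 to IFI6 were at least 2-fold lower in array 1 of both groups, and ISG20 to IFIT5 rose. ISG15 and CXCL10 did neither, although CXCL10 had the most negative change among the measured members. The sets are not distinct kinds, since IFIT1 to IFI6 also did not pass between siRNAs without a block.

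IFIT1: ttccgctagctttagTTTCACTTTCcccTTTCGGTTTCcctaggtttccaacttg
IFIT3: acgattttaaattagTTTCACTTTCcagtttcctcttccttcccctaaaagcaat
RSAD2: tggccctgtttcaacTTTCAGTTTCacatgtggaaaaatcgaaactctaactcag
IFI6: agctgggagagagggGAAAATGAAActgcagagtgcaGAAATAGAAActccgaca

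ISG15: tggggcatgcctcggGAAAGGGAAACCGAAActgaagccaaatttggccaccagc
CXCL10: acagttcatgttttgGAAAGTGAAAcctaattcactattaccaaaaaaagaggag

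ISG20: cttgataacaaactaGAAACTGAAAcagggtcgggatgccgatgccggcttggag
LGALS3BP: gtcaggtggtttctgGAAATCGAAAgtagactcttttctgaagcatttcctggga
PARP14: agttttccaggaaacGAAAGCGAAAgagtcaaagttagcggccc
IFIT5: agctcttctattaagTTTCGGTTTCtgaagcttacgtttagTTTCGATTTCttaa

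These stretches lie at chr10:89392492-89392546 (IFIT1, plus strand), chr10:89327860-89327914 (IFIT3, plus), chr2:6877617-6877671 (RSAD2, plus), chr1:27672268-27672322 (IFI6, minus), chr1:1013369-1013423 (ISG15, plus), chr4:76023679-76023733 (CXCL10, minus), chr15:88638932-88638986 (ISG20, plus), chr17:78979942-78979996 (LGALS3BP, minus), chr3:122680795-122680838 (PARP14, plus) and chr10:89414508-89414562 (IFIT5, plus). The stretches of IFIT1, IFI6, ISG15 and IFIT5 hold 2 copies each, and those in ISG15 overlap. In TLR3 and EIF2AK2 a copy spans the start itself, and in IFI35, IRF9 and UBE2L6, which also rose, these letters were not in the window. They were also absent in OAS1 and CMPK2, which were at least 2-fold lower in array 1 of both groups. TRIM22, IRF7, USP18, OASL, OAS2, MX2 and IFIT2 had no window in the table. Among the 27 measured members with the motif, 5 rose and 1 fell, with a median change of 0.19. Among the 12 measured members without it 3 rose and 0 fell, with a median of 0.33. Over all genes 15.2% rose and 12.3% fell. The median gap between arrays 2 and 3 and array 1 was 0.66 with the motif and 0.52 without it. Array 1 was at least 2-fold lower in both groups in 8 of the 27 and in 2 of the 12, against 0.258% of all genes. No test was made between these counts.

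Of the 9 direct antiviral effectors, 2 rose (22.2%, against 15.2% of all genes) and 0 fell (12.3% of all genes). None had an unadjusted p below 0.05 in the lower direction in limma. TRIM22, a ubiquitin ligase of the tripartite motif family that restricts viral transcription, had log2 levels of 8.69, 8.77 and 8.70 in siPCARNEQ arrays 1 to 3 and 6.88, 6.91 and 6.98 in siEGFP arrays 1 to 3. It went from 6.92 ± 0.05 to 8.72 ± 0.04 (SD, n = 3), and no siPCARNEQ array came near a siEGFP array. TRIM22 rose by 1.79 (SE 0.07, adjusted p = 2.51e-05), or 3.47-fold, the largest rise among the measured members. The adjusted p stayed at or below 0.000647 without any single array and was 0.0056 with arrays 2 and 3 averaged. Since the siEGFP levels lay just below the array median of 7.03, the size of the rise is uncertain. ISG20, an exonuclease that degrades single-stranded RNA, lay at 9.10, 9.57 and 9.65 with siPCARNEQ against 8.62, 8.92 and 8.98 with siEGFP and rose by 0.60 (SE 0.16, adjusted p = 0.031). That call was lost without any array but siPCARNEQ array 1 (adjusted p up to 0.0962) and with arrays 2 and 3 averaged (0.159).

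The other 7 effectors did not pass without a block. MX1 and MX2, dynamin-like GTPases that trap viral nucleocapsids, differed by 0.23 (adjusted p = 0.0837) and 0.07 (adjusted p = 0.478), with MX1 levels of 7.65, 7.64 and 7.67 with siPCARNEQ against 7.27, 7.46 and 7.54 with siEGFP. RSAD2 (viperin), which makes a chain-terminating nucleotide, lay at 6.55, 8.24 and 8.20 with siPCARNEQ against 6.49, 8.80 and 8.87 with siEGFP, with a change of -0.39 (SE 0.72). Its neighbour CMPK2, a mitochondrial nucleotide kinase, had a change of 0.29 and passed with the replicate number as a block (adjusted p = 0.0155). BST2 (tetherin), which holds budding virions at the cell surface, and SAMD9, a restriction factor of poxviruses, had changes of 0.51 and 0.55 and passed with that block as well (adjusted p = 0.0143 and 0.0104). SAMD9L had a change of -0.12 at levels below the array median.

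ISG15 is a ubiquitin-like protein that UBE2L6 and HERC5 attach to other proteins and USP18 removes. ISG15 itself lay at 12.29, 12.84 and 12.90 with siPCARNEQ against 12.26, 12.90 and 12.96 with siEGFP, a change of -0.03 (SE 0.23, adjusted p = 0.952). The groups overlapped, and array 1 was the lowest in each. UBE2L6, the conjugating enzyme, lay at 8.23, 8.53 and 8.82 with siPCARNEQ against 7.77, 7.78 and 7.97 with siEGFP and rose by 0.69 (SE 0.15, adjusted p = 0.0121). The adjusted p was 0.0522 without siEGFP array 2 and 0.0764 with arrays 2 and 3 averaged. USP18, the deconjugating protease and a brake on the type I interferon receptor, went the opposite way, at 9.49, 9.63 and 9.58 with siPCARNEQ against 10.01, 10.01 and 10.11 with siEGFP. Each of its siPCARNEQ arrays was below all siEGFP arrays, and array 1 did not stand apart. USP18 fell by 0.48 (SE 0.07, adjusted p = 0.00251), and the adjusted p was 0.0461 with arrays 2 and 3 averaged. For the ligases HERC5 and HERC6 the changes were -0.24 (adjusted p = 0.552) and 0.02 (adjusted p = 0.925).

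PARP14, an ADP-ribosyltransferase, lay at 7.41, 7.18 and 7.19 with siPCARNEQ against 6.95, 6.62 and 6.75 with siEGFP, with array 1 the highest in each group. Its mean was below the array median. PARP14 rose by 0.49 (SE 0.11, adjusted p = 0.0139), while its dimmer probe set had a change of 0.02. Its adjusted p was up to 0.0566 without siEGFP array 2 or 3, and 0.101 with arrays 2 and 3 averaged. PARP12, at 10.73, 10.51 and 10.49 with siPCARNEQ against 10.47, 10.29 and 10.34 with siEGFP, had a change of 0.21 (SE 0.09, adjusted p = 0.142), and passed with the replicate number as a block (adjusted p = 0.0481). PARP9 had a change of 0.18 (SE 0.16, adjusted p = 0.477) and passed without siPCARNEQ array 1 (adjusted p = 0.0305).

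In the remaining interferon-induced proteins 1 of 9 rose (11.1%, against 15.2% of all genes) and 0 fell (12.3% of all genes). None was at an unadjusted p below 0.05 in the lower direction in limma. IFI35, a leucine zipper protein released as a damage signal, lay at 8.72, 9.09 and 9.22 with siPCARNEQ against 7.88, 8.23 and 8.32 with siEGFP. The pair differences were nearly equal (0.84, 0.87 and 0.90), and IFI35 rose by 0.87 (SE 0.16, adjusted p = 0.00642), with 0.0568 when arrays 2 and 3 were averaged. SP110, a nuclear body protein, lay at 9.74, 9.78 and 9.81 with siPCARNEQ against 9.19, 9.53 and 9.57 with siEGFP and just missed the threshold, with a change of 0.35 (SE 0.11, adjusted p = 0.0515) and adjusted p = 0.0252 with the replicate number as a block. IFI6 and IFI27, small membrane proteins of 1 family, differed by 0.69 (adjusted p = 0.298) and 0.83 (adjusted p = 0.438). Both were higher with siPCARNEQ in every pair (0.85, 0.61 and 0.63 for IFI6, 1.02, 0.97 and 0.50 for IFI27) and passed with the block (adjusted p = 0.00141 and 0.00313). XAF1, a pro-apoptotic factor, had a change of 0.30 and passed likewise (0.0204). PLSCR1, a phospholipid scramblase, had a change of -0.31 and passed in the lower direction with the block (0.0321). IFI44, IFI44L and EPSTI1, with changes of -0.14, 0.18 and -0.14, passed in neither fit.

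The 2 secreted proteins had changes of opposite sign, of which 1 passed (27.5% of all genes passed). LGALS3BP, a glycoprotein that binds galectins, lay at 9.60, 9.15 and 9.23 with siPCARNEQ against 8.43, 8.34 and 8.29 with siEGFP, with no overlap and array 1 the highest in each group. LGALS3BP rose by 0.98 (SE 0.12, adjusted p = 0.00126), and the adjusted p was 0.0227 with arrays 2 and 3 averaged. CXCL10, a chemokine that draws T cells, lay at 6.70, 7.40 and 7.42 with siPCARNEQ against 7.48, 9.32 and 9.47 with siEGFP. Every siPCARNEQ array was below every siEGFP array, by -0.78, -1.92 and -2.05 in pairs 1 to 3. The change of -1.58 (SE 0.51, adjusted p = 0.0572) was the most negative among the measured members and did not pass without a block. It passed with the replicate number as a block (adjusted p = 0.00501) and without siEGFP array 1 (adjusted p = 0.00222).

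The members of antigen processing did not pass: 0 of 3 rose (15.2% of all genes) and 0 fell (12.3% of all genes) in limma. At an unadjusted p below 0.05 there was 1 in each direction. PSMB8 and PSMB9 are catalytic subunits of the immunoproteasome, and TAP1 is 1 chain of the peptide transporter of the endoplasmic reticulum. PSMB9 lay at 7.39, 8.08 and 8.20 with siPCARNEQ against 7.09, 7.49 and 7.69 with siEGFP, with a change of 0.46 (SE 0.24, adjusted p = 0.203) and adjusted p = 0.00678 with the replicate number as a block. PSMB8 lay at 7.51, 7.81 and 8.04 with siPCARNEQ against 7.60, 7.25 and 7.32 with siEGFP, where pair 1 (-0.09) went against pairs 2 and 3, with a change of 0.40 (SE 0.15, adjusted p = 0.0954). Without siPCARNEQ array 1, PSMB8 and PSMB9 both passed (adjusted p = 0.0211 and 0.0214). TAP1 lay at 9.73, 9.59 and 9.68 with siPCARNEQ against 9.89, 9.76 and 9.90 with siEGFP, below siEGFP on all arrays, with a change of -0.18 (SE 0.08, adjusted p = 0.124). By role, the median change was -0.08 in RNA sensors, 0.37 in IFIT proteins, 0.29 in direct effectors and 0.40 in antigen processing. These medians describe groups of 3 to 9 genes and depended on array 1. In pair 1 and in pairs 2 and 3 they were 0.05 and -0.07 for RNA sensors, 1.02 and 0.19 for IFIT proteins, 0.38 and 0.30 for direct effectors, and -0.09 and 0.55 for antigen processing. The sign thus turned for RNA sensors and antigen processing, and no test of a difference between roles was made.

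**Figure D4:**
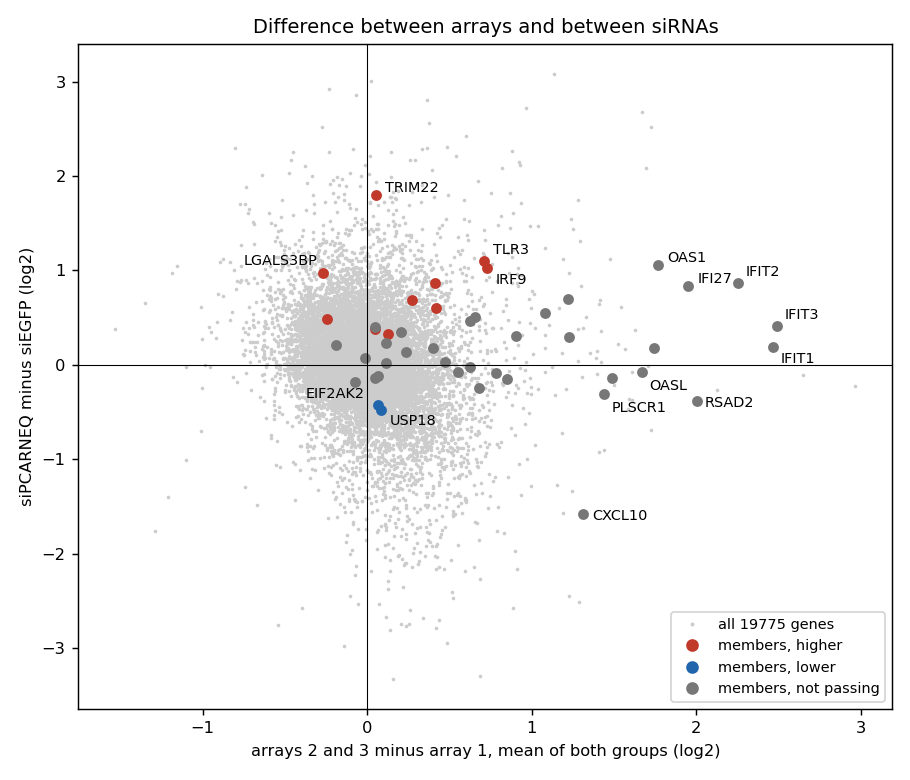
Each gene's difference between arrays 2 and 3 and array 1 (mean of both groups, x axis) against its change with siPCARNEQ (y axis), both in log2 units, with all genes in grey and members coloured by call. Members spread along the x axis up to 2.49 (IFIT3), while the members that passed lie between -0.27 and 0.73 on it. The calls are from the fit without a block, in which a wide gap between arrays raises the SE. Members far to the right could therefore pass less easily.

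Other genes of the pathway were read from the same fit. The 18 measured interferon genes (of 20 listed) all had means below the array median. In limma 0 rose (15.2% of all genes) and 0 fell (12.3% of all genes), with none at an unadjusted p below 0.05. The smallest p belonged to IFNA2, with a change of -0.15 (SE 0.08, adjusted p = 0.203), and IFNB1, named after its values were seen, had a change of 0.20 and passed without siPCARNEQ array 1 (adjusted p = 0.0359). Interferon-alpha genes are close in sequence, so single ones are uncertain.

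Of 9 receptors and kinases, all measured, 4 rose (44.4%, against 15.2% of all genes) and 0 fell (12.3% of all genes). None was lower at an unadjusted p below 0.05 in limma. Both chains of the interferon-gamma receptor rose, IFNGR1 by 0.63 (SE 0.08, adjusted p = 0.00163) and IFNGR2 by 0.56 (SE 0.11, adjusted p = 0.00686). For IFNGR1, the probe set without cross-matching transcripts had a change of 0.55 and an adjusted p of 0.116. IL10RB, a chain of the interferon-lambda and interleukin-10 receptors, rose by 0.79 (SE 0.14, adjusted p = 0.00626). JAK1, the kinase shared by all interferon receptors, lay at 7.66, 7.46 and 7.57 with siPCARNEQ against 6.55, 6.86 and 6.98 with siEGFP and rose by 0.76 (SE 0.12, adjusted p = 0.00312). Its siEGFP levels were all below the array median, and of the other 4 JAK1 probe sets 1 rose and 3 did not pass.

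Of 24 measured adaptors and cofactors of RNA and DNA sensing (25 listed), 3 rose, 3 fell and 18 did not pass. That is 12.5% in each direction, near the 15.2% higher and 12.3% lower among all genes. MAVS, the adaptor of RIG-I and MDA5, rose by 0.31 (SE 0.07, adjusted p = 0.012), with 0.0597 without siEGFP array 3. Averaged over its 4 probe sets, MAVS had an adjusted p of 0.146. NLRX1, a mitochondrial protein that restrains MAVS, rose by 0.46 (SE 0.08). IRF3, the factor that switches on the interferon-beta gene, rose by 0.23 (SE 0.06, adjusted p = 0.0366), a call lost without any array but siPCARNEQ array 1 (adjusted p up to 0.108). TRAF3, a ubiquitin ligase between MAVS and its kinases, fell by 0.56 (SE 0.10), and its other probe set had a change of -0.04. RNF135, a ubiquitin ligase that activates RIG-I, fell by 0.38 (SE 0.07), and TRIM25, another ligase for RIG-I, by 0.30 (SE 0.09), the latter call lost without any array but siPCARNEQ array 1 (adjusted p up to 0.127).

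Of 39 measured further interferon-stimulated genes (43 listed), 13 rose, 1 fell and 25 did not pass, with a median change of 0.09. These make up 33.3% higher and 2.56% lower, against 15.2% and 12.3% of all genes. TRIM38 and TRIM21, ubiquitin ligases, rose by 0.92 (SE 0.09) and 0.65 (SE 0.09), and the helicase HELZ2 by 0.80 (SE 0.09) in 1 of its 4 probe sets. The gene that fell was NT5C3A, a pyrimidine nucleotidase, by 0.88 (SE 0.08, adjusted p = 0.000302). IFITM1, a membrane protein that blocks viral entry, lay at 9.50, 10.63 and 10.55 with siPCARNEQ against 7.85, 9.31 and 9.22 with siEGFP, and its change of 1.44 had an adjusted p of 0.0505 (0.000326 with the replicate number as a block, 0.0215 without siPCARNEQ array 1). It was named after its values were seen.

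Of 17 measured genes of antigen presentation (19 listed), 8 rose, 2 fell and 7 did not pass, with a median change of 0.31. The shares were 47.1% higher and 11.8% lower, against 15.2% and 12.3% of all genes. HLA-B lay at 11.59, 11.65 and 11.65 with siPCARNEQ against 11.02, 10.87 and 10.88 with siEGFP and rose by 0.70 (SE 0.07, adjusted p = 0.000525). HLA-C and HLA-E rose by 0.63 (SE 0.07) and 0.75 (SE 0.08). Class I genes are similar in sequence and their brightest probe sets can match several transcripts, so single ones are uncertain. PSMB10, the remaining catalytic immunoproteasome subunit, fell by 0.53 (SE 0.07, adjusted p = 0.00127), and TAP2, the partner of TAP1, by 0.77 (SE 0.12, adjusted p = 0.00305). The gap between arrays 2 and 3 and array 1, averaged over the groups, ran from -0.42 to 0.22 in these genes.

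Of 6 negative regulators, 1 rose and 1 fell, 16.7% in each direction against 15.2% higher and 12.3% lower among all genes. PIAS1, a SUMO ligase, rose by 1.05 (SE 0.16, adjusted p = 0.00245) and in all 3 of its probe sets. PTPN11, the phosphatase SHP2, fell by 1.05 (SE 0.06, adjusted p = 7.55e-05), in 3 of its 6 probe sets.

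**Figure D5:**
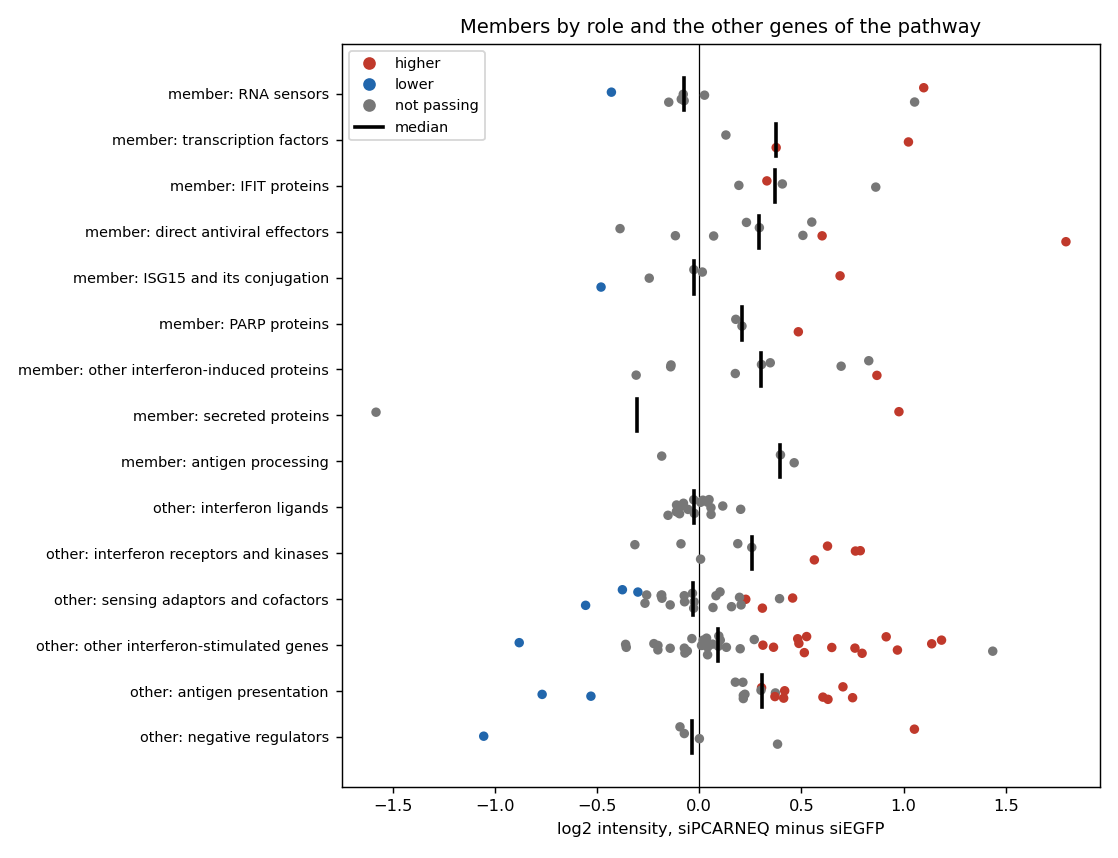
Log2 change (siPCARNEQ minus siEGFP) of each measured member by role, and of the other pathway genes by list, with points coloured by call and a black bar for the median. The antigen presentation genes have a median of 0.31 and the interferon genes lie near 0 (median -0.03).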

How the data were processed

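The authors deposited 1 table of probe-set intensity on a linear scale for 6 arrays, made with RMA (robust multi-array averaging) according to the submitters' processing notes. The RMA version is not given in the sources used here. RMA corrects background, quantile-normalizes and summarises, and the sorted arrays differed by at most 0.0049 (log2), so differences in total RNA are out of reach. RNA was extracted with Trizol and cleaned on a column, per the labels' protocols. Here log2 was taken with no pseudocount. Of 54613 non-control probe sets, the platform annotation gave 1 gene to 41091, several to 1801 and none to 11721, and the last 2 kinds were not used. The brightest per gene gave 19775 genes.

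Groups were compared with limma 3.58.1 in R 4.3.3 (lmFit, eBayes, no covariates, 2-sided, Benjamini-Hochberg over all genes). The procedure was tested on simulated data in which all arrays varied independently, so that check did not cover the shared shift of array 1. ACTB controls were compared with an exact permutation test (SciPy 1.17.1). Promoter windows and symbols came from RefSeq tables.

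The members and lists were chosen with earlier results of these data known. Levels on all arrays are given for members that passed and for up to 2 per role with the smallest p. Other members' levels on all arrays were added after their values were seen. Of each other list up to 4 genes that passed with the smallest p, or else 1, are named, plus JAK1, IRF3 and MAVS. 1 gene of the pathway is not reported here. IFNB1, IFITM1, TAP2 and TRIM25 were added after their values were seen. The main fit did not pair the arrays. Replicate numbers served as pairs only in the pair differences and in the replicate block. Deviations from group means correlated at 0.47, 0.30 and 0.34 for arrays of the same number. Arrays 2 and 3 of different numbers also correlated across groups, at 0.37 and 0.24, so numbers 2 and 3 are not shown to mark pairs. Alternatives were the replicate block, each array left out, other choices of probe set, a filter on dim genes, renormalization, other eBayes settings, and arrays 2 and 3 averaged or alone. The array set as a block was added with the values known.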

Additional observations from a re-analysis of the deposited data

How the results depend on the processing

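The counts of 10 members higher and 2 lower depended on how array 1 was treated. With the replicate number as a block they were 21 and 4, with the array set as a block 22 and 4, and with arrays 2 and 3 alone 23 and 6. In that last setting 22.8% and 18.8% of all genes passed. With arrays 2 and 3 averaged they were 2 and 1, and 17 of the other pathway genes passed against 36. That setting has fewer replicates, and both blocks remove the gap between arrays from the spread. Leaving out 1 array at a time gave 5 (without siEGFP array 2) to 13 (without siPCARNEQ array 1) members higher, 2 to 3 lower, and 27 to 41 pathway genes. With siPCARNEQ array 2, siPCARNEQ array 3, siEGFP array 1 or siEGFP array 3 left out, 6 members were higher. Over all genes, the share higher ran from 10.3% (without siEGFP array 2) to 17.4% (without siPCARNEQ array 1). The block moved the pathway count to 48, within 1.5 times. Averaging probe sets, leaving out probe sets that match several transcripts, renormalizing and other eBayes settings each gave the same 10 and 2 genes. Dropping genes below the array median left 39 members, of which 10 were higher and 2 lower. PARP14 was not tested there, and SP110 passed (adjusted p = 0.0407). No called value changed sign in the settings run. The 3 arrays per group limit the precision, and 7 members lay below the array median, where a level may be near background.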

Other observations

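The genes that shared the array pattern of IFIT1 and its relatives were not all interferon-stimulated. Of the 51 genes at least 2-fold lower in array 1 than in arrays 2 and 3 of both groups, 12 (23.5%) were members, and those named here were picked after their values were seen. CXCL11, a chemokine of the same receptor as CXCL10, had a gap of 2.53 in siPCARNEQ and 3.41 in siEGFP on the log2 scale, the widest of the 51 for the mean of both groups, with a change between siRNAs of -0.22. Its array 1 levels, 4.49 with siPCARNEQ and 4.13 with siEGFP, were far below the array median of 7.03, so the size of this gap is uncertain. CYP1A1, a target of the aryl hydrocarbon receptor, was lower in array 1 by 2.87 in siPCARNEQ and 2.42 in siEGFP. ID1, ID3 and ID4, targets of BMP and TGF-beta signalling that inhibit helix-loop-helix factors, were lower by 2.47 in siPCARNEQ and 1.78 in siEGFP, 1.95 in siPCARNEQ and 1.46 in siEGFP and 1.55 in siPCARNEQ and 1.45 in siEGFP. CYP1A1, ID1, ID3 and ID4 differed between siRNAs by -0.11, -0.27, -0.01 and -0.21, less than between arrays. No test was made of these gaps, since each group holds 1 array 1.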
